A study of Daucus carota subsp. sativus with 2 samples.

Results

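Carotenoid cleavage dioxygenases (CCD) and 9-cis-epoxycarotenoid dioxygenases (NCED) form 1 enzyme family that cuts the carbon chain of carotenoids. Their transcripts were examined in roots of carrot, Daucus carota subsp. sativus, in 1 library titled Delhi_Carrot_Red, from a red variety, and 1 titled Hybrid_Carrot_Orange, from an orange variety. The series title calls the red carrot wild and the orange one modified; the sources used here give neither how the orange carrot was modified nor the age of the roots. Both roots were untreated and both libraries were made from poly(A)-selected RNA. With 1 library per variety no difference has a replicate check, and variety, plant and library cannot be told apart. Members were all rows of the read count table whose protein name contained carotenoid cleavage dioxygenase, 9-cis-epoxycarotenoid or carotenoid 9,10, which gave 8 transcripts of 19838. They are 2 rows named CCD1, 1 named NCED4-CCD4, and NCED-2, NCED-5, NCED-6, NCED-7 and NCED-9.

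CCD1 is a cytosolic enzyme that cuts many carotenoids and apocarotenoids at both ends of the chain and releases volatile ionones, which contribute to aroma. CCD4 acts in plastids on beta-carotene and related carotenoids and is known for lowering the carotenoid content of flowers and other organs. NCED enzymes cut the epoxy-xanthophylls violaxanthin and neoxanthin, in their 9-cis forms, to xanthoxin, the first committed step of abscisic acid synthesis. In Arabidopsis the gene first called NCED4 is now called CCD4, and the joint name NCED4-CCD4 in the deposited table follows that pair of names. The cleavage step therefore stands both between stored pigment and aroma and between xanthophylls and a hormone.

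Of the 8 transcripts, 4 were higher by 2-fold or more in the red library, 1 was so in the orange library, and 3 had too few reads to compare. Both CCD1 rows, NCED4-CCD4 and NCED-2 were on the red side, at ratios from 3.30 to 123. NCED-9 alone was on the orange side, with 520 reads there and 0 in red. A transcript counted as different when its log2 ratio was at least 2-fold and the 95% exact counting interval of the ratio excluded equality. By that rule 30.4% of the 14868 measured transcripts were higher in red and 24.4% were higher in orange. Measured means a mean scaled count of at least 10, where a scaled count is the read count divided by a median-of-ratios factor for the library. All 5 measured members had a mean scaled count above 100, and among the 9628 transcripts at that level 28.9% were higher in red and 20.9% in orange.

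The libraries held 11310179 reads in red and 7432754 in orange, and a count of 0 was read as a limit of 3 reads. Intervals and limits cover counting error only. Transcript lengths are not in the files, so read counts are compared here between libraries and not as levels between transcripts. In the orange library 0.313% of reads fell on 44 transcripts of photosynthetic proteins (chlorophyll a-b binding proteins, photosystem subunits and the RuBisCO small chain), against 4.28% in red. Of these 44 transcripts 41 were measured, 33 of them higher in red and 3 in orange. In orange 4 of the 44 had 0 reads, and in red none (0) had. By read count, rows with 0 reads began at rank 17606 of 19838 in orange and 18217 in red. Such counts were thus not particular to these transcripts. The 44 transcripts are markers of green tissue. They moved with the CCD1, NCED4-CCD4 and NCED-2 results and with those of NCED1 and NCED3, a pair of family transcripts outside the rule. The part of these markers in those results was not tested. In bulk tissue, fewer cells of a type and less RNA per cell cannot be told apart.

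**Figure D1:**
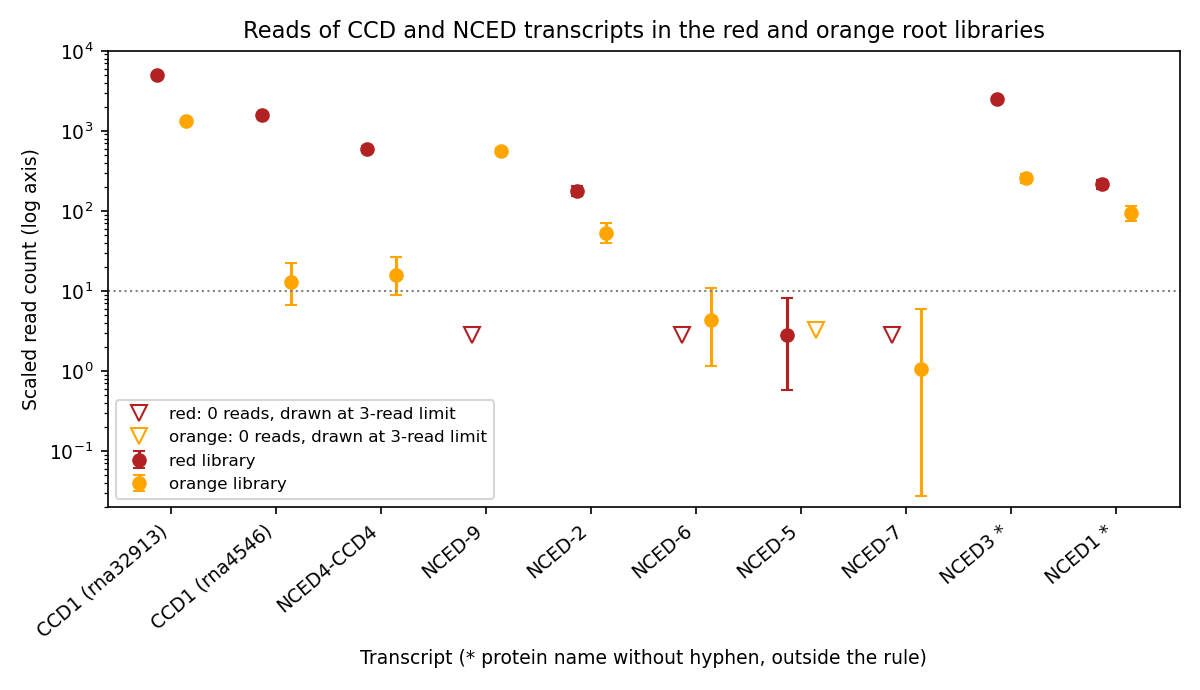
Scaled read counts (log axis) of the 8 CCD and NCED transcripts and of NCED3 and NCED1 (asterisk) in the red and orange libraries, 1 library each. Points are single libraries, bars are 95% exact Poisson intervals, open triangles mark 0 reads drawn at the limit of 3 reads, and the dotted line is a scaled count of 10. Red points lie above orange ones for both CCD1 rows, NCED4-CCD4, NCED-2, NCED3 and NCED1, and NCED-9 shows the opposite order.

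The CCD1 row rna32913 had 5357 reads in red and 1240 in orange. These were scaled counts of 5020.3 and 1323, 3.79-fold higher in red (95% interval 3.57 to 4.04). By read count it stood at rank 301 of all rows in red and at rank 1308 in orange. It was the member with the most reads in each library.

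The second CCD1 row, rna4546, had 1676 reads in red and 12 in orange. It was 123-fold higher in red (70.0 to 238), and at its red rate the orange library would have held 1472 reads. Of all measured transcripts, 2.33% lay at least as far toward red. It thus had the largest ratio among the members with reads in both libraries, while its orange side rests on 12 reads.

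The 2 CCD1 rows therefore did not differ by the same factor between the libraries. In red, rna4546 held 23.8% of the reads of both CCD1 rows (exact interval 22.8 to 24.8), and in orange 0.958% (0.496 to 1.67). The RefSeq gene table of the DH1 v3.0 assembly, used for names only, has 1 gene named CCD1, and the files do not say whether the rows are isoforms of it or separate copies. If they share sequence, counting can split or drop reads between them, so the sum of both is given too. Summed, CCD1 had 7033 reads in red and 1252 in orange, 4.93-fold higher in red (4.64 to 5.24).

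NCED4-CCD4, the plastid enzyme, had 638 reads in red and 15 in orange. Its scaled count was 37.4-fold higher in red (22.5 to 67.1), and its red rate would have given 560 reads in the orange library. It and rna4546 were the members whose ratio toward red also passed 4-fold. At least as far toward red lay 5.60% of the measured transcripts.

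NCED-2 had 188 reads in red and 50 in orange. It was 3.30-fold higher in red (2.41 to 4.61), an interval that overlapped that of CCD1 rna32913, and 22.2% of the measured transcripts lay at least as far toward red. Both ratios were thus of a size shared by many transcripts of these libraries.

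NCED-9 had 0 reads in red and 520 in orange, a scaled count of 554.9 there. Set against the limit of 3 reads in the red library it was at least 197-fold higher in orange, and its orange rate would have given 592 reads in red. Such a pattern was uncommon in the table. Of the 3205 transcripts with at least as many reads in orange, 14 had 0 reads in red, and NCED-9 is 1 of these. Where the other measured members had reads in both libraries, this one was detected in 1 library alone.

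The remaining members were near the detection limit. NCED-5 had 3 reads in red and 0 in orange, NCED-6 had 0 and 4, and NCED-7 had 0 and 1. No ratio is given for them, since neither library held more than 4 reads and a difference was not detectable at this depth. The 5 measured members had a median log2 ratio, orange over red, of -1.92, against -0.06 over all measured transcripts. As the middle of 5 values, this median is the ratio of CCD1 rna32913. Setting NCED-9 at its bound could not move it, since NCED-9 stays the highest value.

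**Figure D2:**
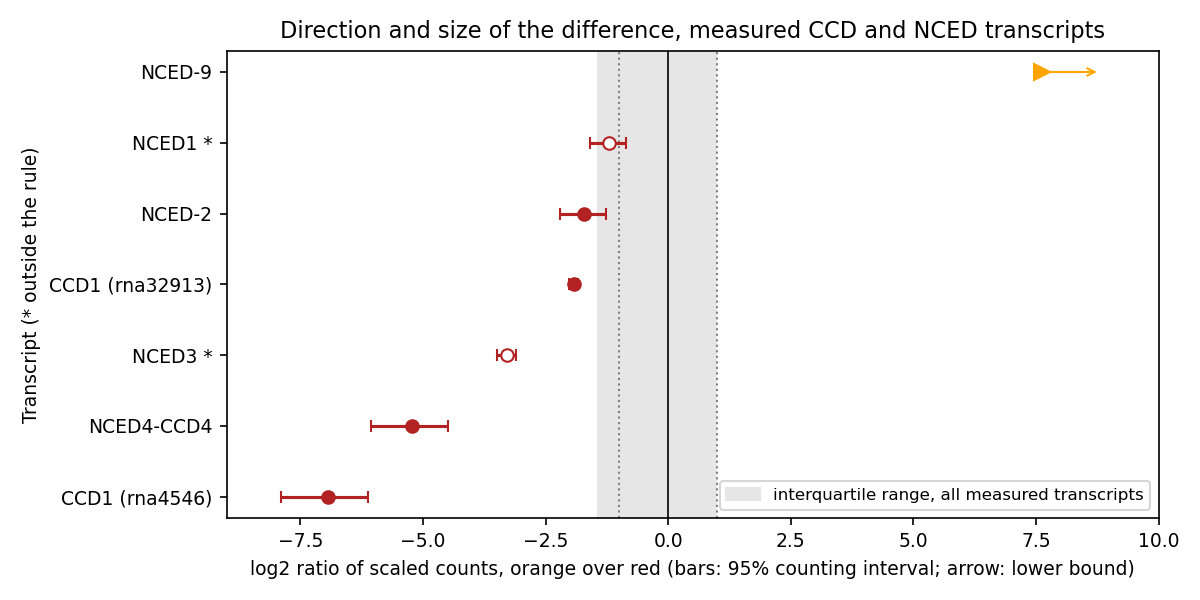
Log2 ratio of scaled counts, orange over red, for the 5 measured members and for NCED3 and NCED1 (asterisk, open points). Bars are 95% exact counting intervals, the arrow marks the lower bound of NCED-9 against 3 reads, dotted lines mark 2-fold, and the grey band is the interquartile range of all measured transcripts, from -1.44 to 0.97. CCD1 rna4546 and NCED4-CCD4 lie farthest to the red side and NCED-9 on the orange side.

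A further 2 transcripts of the same family carry a protein name spelled without the hyphen after 9-cis, and so fall outside the rule. They were found after the table had been examined. NCED3 had 2662 reads in red and 238 in orange, and was 9.82-fold higher in red (8.60 to 11.3). NCED1 had 230 and 87 reads and was 2.32-fold higher in red (1.81 to 3.01). Scaled to total counts, NCED1 was under 2-fold (log2 -0.79), as it was with upper-quartile scaling (-0.96). With both included, 6 of 7 measured transcripts of 10 were higher in red and 1 in orange, against 30.4% and 24.4% of all measured transcripts. The 6 include NCED1, which fell under 2-fold with those scalings.

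The direction of the summed NCED reads depended on these 2 transcripts. The 5 NCED members of the rule, without NCED4-CCD4, held 191 reads in red and 575 in orange, a sum 3.43-fold higher in orange (2.91 to 4.06), and NCED-9 supplied 520 of the 575. With NCED1 and NCED3 added the sums were 3083 and 900 reads, 3.01-fold higher in red (2.79 to 3.24). Both directions held under total-count, TMM, upper-quartile and ribosomal protein scaling, at 2.13 to 4.58-fold for the first sum and 2.25 to 4.85-fold for the second. The main NCED transcript by reads also differed between the libraries. NCED3 held 86.3% of the reads of these 7 NCED rows in red (85.1 to 87.5) and 26.4% in orange (23.6 to 29.5). NCED-9 held 57.8% of them in orange (54.5 to 61.0) and none (0) of 3083 reads in red. The shares of NCED-2 were close in both, 6.10% in red (5.28 to 7.001) and 5.56% in orange (4.15 to 7.26), with overlapping intervals. These are shares of reads and not of molecules, since lengths were not used.

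**Figure D3:**
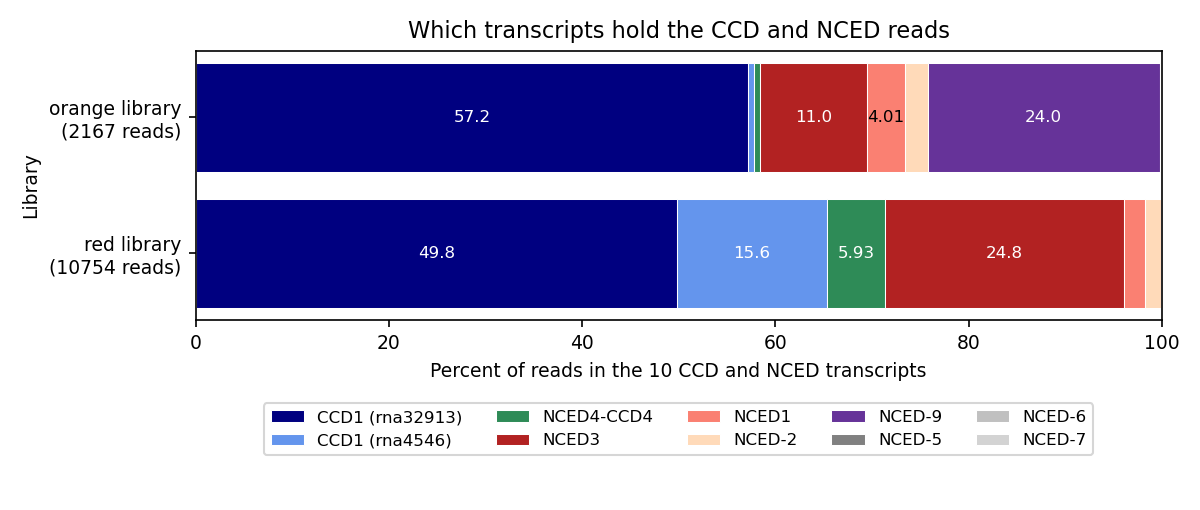
Percent of the reads in the 10 CCD and NCED transcripts (8 members with NCED1 and NCED3) held by each transcript, in the red library (10754 reads) and the orange library (2167 reads). CCD1 rna32913 takes 49.8% in red and 57.2% in orange, CCD1 rna4546 15.6% in red, NCED3 24.8% and 11.0%, and NCED-9 24.0% in orange.

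The 8 members together took 7862 reads in red and 1842 in orange. That was 0.0695% of all reads in red (exact interval 0.0680 to 0.0711) and 0.0248% in orange (0.0237 to 0.0259), and the scaled sum was 3.75-fold higher in red (3.56 to 3.95). The difference of the sum was mostly one of CCD1, which held 89.5% of the members' reads in red and 68.0% in orange. Without CCD1 the members summed to 829 reads in red and 590 in orange, 1.23-fold higher in red (1.11 to 1.37), but 1.08-fold higher in orange with total-count scaling (0.97 to 1.21). It was 1.04-fold higher in red with upper-quartile scaling (0.93 to 1.16) and 1.99-fold higher in red with ribosomal protein scaling (1.79 to 2.21). That sum joins NCED4-CCD4 and NCED-9, which went in opposite directions. With NCED1 and NCED3 added to all members the sum was 4.36-fold higher in red (4.16 to 4.57).

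In the authors' deposited table NCED-9 is the one member with an adjusted p-value of at most 0.05. Its p-value there is 1.16e-04 and its adjusted p-value 0.0428, and 63 of the 19838 rows of the authors' deposited tables, 0.318%, are at or under that limit. Of these 63 rows 44 are listed with reads in red alone and 13, NCED-9 among them, with reads in orange alone. An unadjusted p-value of at most 0.05 was given to 6.04% of rows. In the authors' deposited table CCD1 rna4546 has a p-value of 0.00160 and an adjusted p-value of 0.160, and NCED4-CCD4 has 0.00908 and 0.375. CCD1 rna32913 and NCED-2 have adjusted p-values of 1 in the authors' deposited table, as do NCED1 and NCED3. The sources used here do not say how the authors set the spread from single libraries, so these values describe the authors' table and not a replicated difference.

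Steps before the cleavage were compared as lists of protein names. Of 12 carotenoid biosynthesis transcripts 11 were measured, and all 11 passed 2-fold toward red and none (0) toward orange (10 with total-count or upper-quartile scaling, where lycopene beta-cyclase LCYB1 was at log2 -0.66 and -0.83); the list had a median log2 ratio of -3.15 against -0.06 over all measured transcripts, of which 30.4% were higher in red. The photosynthetic markers moved with this list and with ZEP, 33 of 41 toward red at a median of -3.95, and their part in these results was not tested. Lycopene epsilon-cyclase (LCYE), which leads toward lutein, had 3945 and 185 reads and was 18.7-fold higher in red. CYP97A, a carotenoid hydroxylase, was 43.4-fold higher (2618 and 53 reads) and the phytoene desaturase row PDS rna25623 was 8.40-fold higher (2189 and 229). The substrates of NCED are made by zeaxanthin epoxidase and neoxanthin synthase. The epoxidase (ZEP) had 6464 and 210 reads, 27.03-fold higher in red (23.6 to 31.2), and the neoxanthin synthase row NSY-1 had 210 and 134 reads, a ratio of 1.38 toward red (1.10 to 1.72) that did not reach 2-fold (log2 -0.04 with total-count and -1.15 with ribosomal protein scaling). Among the cleavage transcripts, CCD1, NCED4-CCD4, NCED-2, NCED1 and NCED3 were thus on the same side as ZEP and the biosynthesis list, and NCED-9 was on the other.

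After the NCED step, abscisic acid is broken down by 8′-hydroxylases of the CYP707 family. Of 6 such rows 5 were measured, with 2 past 2-fold toward red, 1 past it toward orange, and a median log2 ratio of -0.59. The background over all measured transcripts was 30.4% toward red, 24.4% toward orange and a median of -0.06, so the shares of these 5 rows were near the background. CYP707c-2 had 325 reads in red and 0 in orange, 95.1-fold toward red when set against the limit of 3 reads. That was the reverse of the detection pattern of NCED-9. CYP707c-1 had 208 and 44 reads and was 4.15-fold higher in red (2.99 to 5.89). CYP707a-1 rna344 had 152 and 330 reads and was 2.47-fold higher in orange (2.03 to 3.02), though under 2-fold with ribosomal protein scaling (log2 0.62). CYP707a-2, with 805 and 665 reads, and CYP707b-4, with 113 and 66, were under 2-fold, except CYP707b-4 with ribosomal protein scaling (log2 -1.27). CYP707a-1 rna346 was below the limit with 12 and 1 reads.

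The downstream hormone lists were thin. The list for abscisic acid reception and signalling held 2 rows, matched by protein name alone. The kinase SRK2A had 47 and 86 reads and was 2.08-fold higher in orange (1.44 to 3.04). It was under 2-fold with ribosomal protein scaling (log2 0.37), and whether this kinase acts in abscisic acid signalling was not tested. The other row was under 2-fold. No row (0) matched the strigolactone list, and no row (0) among the members was named CCD7 or CCD8, the cleavage enzymes of strigolactone synthesis. Of all rows 81.5% have an uncharacterized or missing protein name, so further family members may stand among them without a name.

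**Figure D4:**
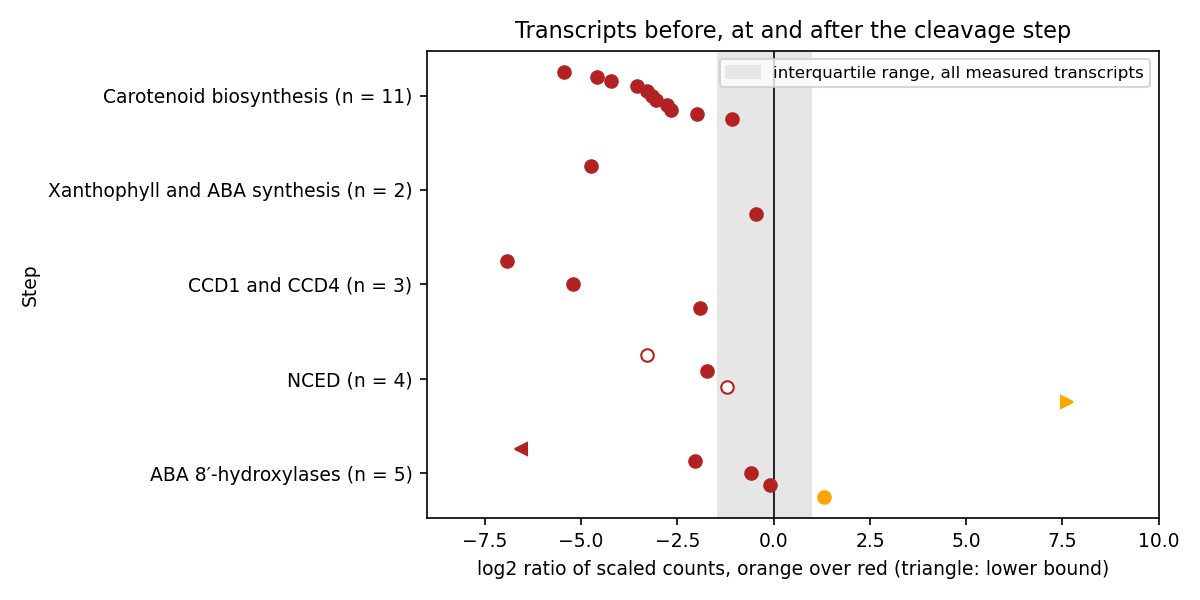
Log2 ratio of scaled counts, orange over red, for each measured transcript of the steps before, at and after carotenoid cleavage. Each point is 1 transcript, and open points are NCED3 and NCED1. Triangles point away from equality and are bounds on the size of the difference where 1 library had 0 reads. The grey band is the interquartile range of all measured transcripts. All 11 biosynthesis transcripts lie to the red side, NCED-9 lies at the orange end, and the CYP707 hydroxylases (ABA is abscisic acid) spread from CYP707c-2 on the red side to CYP707a-1 on the orange side.

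The transcripts most alike in ratio to CCD1 rna32913, among 1916 informatively named ones whose mean scaled count reached 100, were a WAT1-related protein (286 and 66 reads), a TMV resistance protein N-like transcript (1300 and 302) and a histone H2B (599 and 139). Their log2 ratios differed from its own by less than 0.01, over 2 libraries. As 27 transcripts lay within 0.1 of it, likeness over a single ratio is a weak description.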

How the data were processed

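Poly(A)-selected RNA from 1 red and 1 orange carrot root library was sequenced, per the labels, which gave the group of each library by its title. Tools named in the submitters' processing notes, without versions or roles, are HISAT, HTSeq, DESeq, cutadapt and FastQC. The genome build and annotation: not given in the sources used here. Per transcript, the authors deposited read counts and normalised counts, a signal equal to the count times 0.937 (red) or 1.07 (orange). The authors' deposited tables also hold a fold, the ratio of orange over red, its log2, and a p-value and adjusted p-value per transcript.

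Counts were divided by median-of-ratios factors, 1.07 for red and 0.937 for orange, over all 19838 rows. Transcripts with a mean scaled count of at least 10 were measured. The log2 ratio used a pseudocount of 0.5; ratios in the text have none. Intervals of ratios are 95% exact (Clopper-Pearson) from both counts. A count of 0 was set at 3 counts to give a bound, which leaves out counting error in the other count. No p-value was computed, since there is 1 library per group. The code was tested on simulated counts. Alternatives were other scalings (total counts, TMM in edgeR 4.0.16, upper quartile, summed ribosomal protein counts), pseudocounts, filters and limits. Python 3.11.15, NumPy 2.4.6 and SciPy 1.17.1 were used.

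Every member is named; from the other lists, the up to 3 most abundant transcripts at least 2-fold different, ZEP, NSY-1 and the CYP707 rows are named. NCED1 and NCED3, and scaling to ribosomal protein counts, were added after the table had been examined. The members and lists were chosen with earlier results of these data known. Of the 8 member rows 3 matched a RefSeq symbol or synonym, and 0 of the 6 with a locus tag matched by that tag.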

Additional observations from a re-analysis of the deposited data

How the results depend on the processing

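The direction and the 2-fold difference of all 5 measured members held under 6 alternatives each (4 scalings and pseudocounts of 1 and 5). Scaling moved log2 ratios taken without a pseudocount by 0.42 toward orange (total counts), 0.25 toward orange (upper quartile) and 0.69 toward red (summed ribosomal protein counts), and the members' median went to -1.51, -1.67 and -2.61. With the pseudocount the ratio of NCED-9, at 0 reads in red, moved less under these scalings, from 10.12 to 10.33, 10.24 and 9.77. The size of that ratio depends on the pseudocount, however. It fell to 9.12 with a pseudocount of 1 and to 6.81 with a pseudocount of 5. The members' median was -1.82 without the filter on low counts, where members with 4 reads or fewer enter. With a 4-fold limit 2 members were higher in red, CCD1 rna4546 and NCED4-CCD4, and 1 in orange, NCED-9. The share of all measured transcripts past 4-fold is not given here, so these counts have no background beside them. At least as far toward red as these 2 lay 2.33% and 5.60% of measured transcripts. At least as far toward orange as NCED-9 lay 0.101%. The members' share of reads was 0.229% in red and 0.0909% in orange of reads in rows with an informative protein name, and 0.0899% and 0.0310% without the 100 most abundant rows. With ribosomal protein scaling the medians of the carotenoid biosynthesis, xanthophyll and abscisic acid breakdown lists were -3.84, -3.29 and -1.27. The xanthophyll median joins only 2 measured rows of unlike ratio, ZEP (-5.44) and NSY-1 (-1.15). Without the filter on low counts the abscisic acid breakdown median was -1.31, from the added row CYP707a-1 rna346. Depth limits NCED-5, NCED-6 and NCED-7, and the absence of replicates limits every difference.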
